A study of Macaca mulatta with 51 samples.

Results

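Skeletal muscle breaks down its own proteins largely through the ubiquitin-proteasome system, in which E3 ligases choose the proteins to be tagged. The F-box protein FBXO32 (atrogin-1) and the RING protein TRIM63 (MuRF1) are the muscle ligases best known for rising during fasting, disuse and denervation, and the transcription factor FOXO3 switches on both genes when insulin signalling through AKT no longer keeps it out of the nucleus. The gene set described here held these 3 genes and 5 further ligases, namely TRIM55 and TRIM54 (MuRF2 and MuRF3, relatives of TRIM63 that sit on the sarcomere and microtubules), FBXO30 (MUSA1, an F-box protein of the muscle atrophy program), FBXO40 (a muscle F-box protein that targets the insulin receptor substrate IRS1) and CBLB (a RING ligase known for restraining T cell activation and, in unloaded muscle, for targeting IRS1). Members were picked by gene symbol, and all 8 were found among the 16033 genes of the count table. In skeletal muscle (SM) none of the 8 passed the main test (edgeR) between any time points, where at most 0.190% of all genes did. The share of all genes varied with the method. The voom method called 674 of 12617 genes from pre-treatment to washout, again with none of the 8. In adipose tissue (AT), used as the contrast, 5 of the 7 tested members changed between the end of treatment and washout, where 35.4% of all genes did.

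The libraries came from 10 non-diabetic rhesus macaques (Macaca mulatta) with diet-induced obesity (DIO), 5 males and 5 ovariectomized females of 11 to 22 years, all kept on a high-fat diet. Each animal received human FGF21, a hormone of the fasted liver, by daily subcutaneous injection with doses escalating to 1000 ug/kg/day for 12 weeks, and 1 animal stayed at a lower dose. Punch biopsies of the gastrocnemius and of subcutaneous abdominal fat were taken before dosing (pre-treatment), at the end of dosing (post-treatment) and after 16 weeks without FGF21 (washout). No untreated animals were analysed here, so time and treatment cannot be told apart. Each animal with libraries at both time points of a comparison served as its own control. Counts were at hand for 48 libraries, 21 from SM of 8 animals (6 pre-treatment, 8 post-treatment and 7 washout) and 27 from AT (10, 9 and 8), with 14455195 to 23940980 counts per library.

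Levels are given as CPM, the count of a gene relative to the size of its library, scaled by the trimmed mean of M-values (TMM), which allow a gene to be compared between libraries of a tissue but not with another gene, as transcript length was not taken into account. Changes are log2 fold changes with standard errors from edgeR's quasi-likelihood test with animal in the model, and a gene was called differentially expressed (DE) when its Benjamini-Hochberg adjusted p was below 0.05 and its log2 fold change was above 0.26 or below -0.26. A bulk biopsy cannot separate fewer cells of a type from less RNA per cell. The 3 SM post-treatment libraries of animals 21189, 21866 and 24849 stood apart from the rest before any member was considered. They carry sample numbers of another range (called identifier series 3 here, the labels not saying what the ranges mean) than the 5 other SM post-treatment libraries (series 1). The summed level of the 11 measured skeletal muscle markers was 51806 to 87347 CPM in the 3 libraries and 111330 to 207670 CPM in the 5 others, while the 8 fibroblast markers summed to 5992 to 26263 CPM against 259 to 9795 CPM. The SM result of each member is therefore given with and without these 3 libraries, an alternative added after the data were seen, while FOXO1 and the gene lists are given with all libraries. Leaving them out takes animals 21189 and 24849 out of the pairs with a post-treatment library. Animal 21866 had no other SM library with counts. Identifier series and time point overlapped in part only, with 0 series 1 libraries at washout in SM.

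The members were first set against AT at pre-treatment, where 9717 of 13398 genes (72.5%) were DE between the tissues. Of the 8 members, 6 were higher in SM, as 34.3% of genes were, 1 was higher in AT, as 38.3% were, and FOXO3 was not called. CPM ranges were scaled within each tissue and are given for orientation, whereas the log2 fold changes come from a fit that scaled the 16 libraries together. Both tissues matched their labels, the 6 measured adipocyte markers summing to 15159 to 52896 CPM in AT and 115 to 1795 CPM in SM. TRIM63 ranged from 242 to 712 CPM over the 6 SM libraries and from 2.86 to 5.89 CPM over the 10 AT libraries. FBXO40 ranged from 578 to 970 CPM in SM and from 1.20 to 10.6 CPM in AT. The tissues lay far apart for both genes, by log2 fold changes of 7.74 ± 0.28 (SE, adjusted p = 5.38e-08) for TRIM63 and 8.44 ± 0.48 (adjusted p = 1.16e-06) for FBXO40. TRIM54, the third MuRF protein, had 272 to 519 CPM in SM and 0 to 3 counts per library in AT at pre-treatment, too few for a fold change to be given. Over all 27 AT libraries TRIM54 summed to 39 counts, against 120702 counts in the 21 SM libraries.

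FBXO32 was also measured well outside muscle. It ranged from 472 to 751 CPM in SM and from 54.8 to 102 CPM in AT at pre-treatment, a log2 fold change of 3.76 ± 0.19 (adjusted p = 4.06e-07). TRIM55 was higher in SM by 4.24 ± 0.34 on the log2 scale (adjusted p = 7.06e-06), with 30.2 to 62.3 CPM in SM and 1.38 to 10.3 CPM in AT. CBLB alone was higher in AT, where it ranged from 19.6 to 35.7 CPM against 5.85 to 12.4 CPM in SM (log2 fold change -0.90 ± 0.16, adjusted p = 0.000732). FBXO30 was higher in SM by 0.83 ± 0.19 (adjusted p = 0.00300), and FOXO3 differed by 0.26 ± 0.17 (95% interval -0.11 to 0.63, adjusted p = 0.177). CBLB, FBXO30 and FOXO3 depended on the scaling. With library size alone the median over all genes moved from -0.10 to -0.93, CBLB came to -1.74, FBXO30 to -0.01 and FOXO3 to -0.58.

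**Figure D1:**
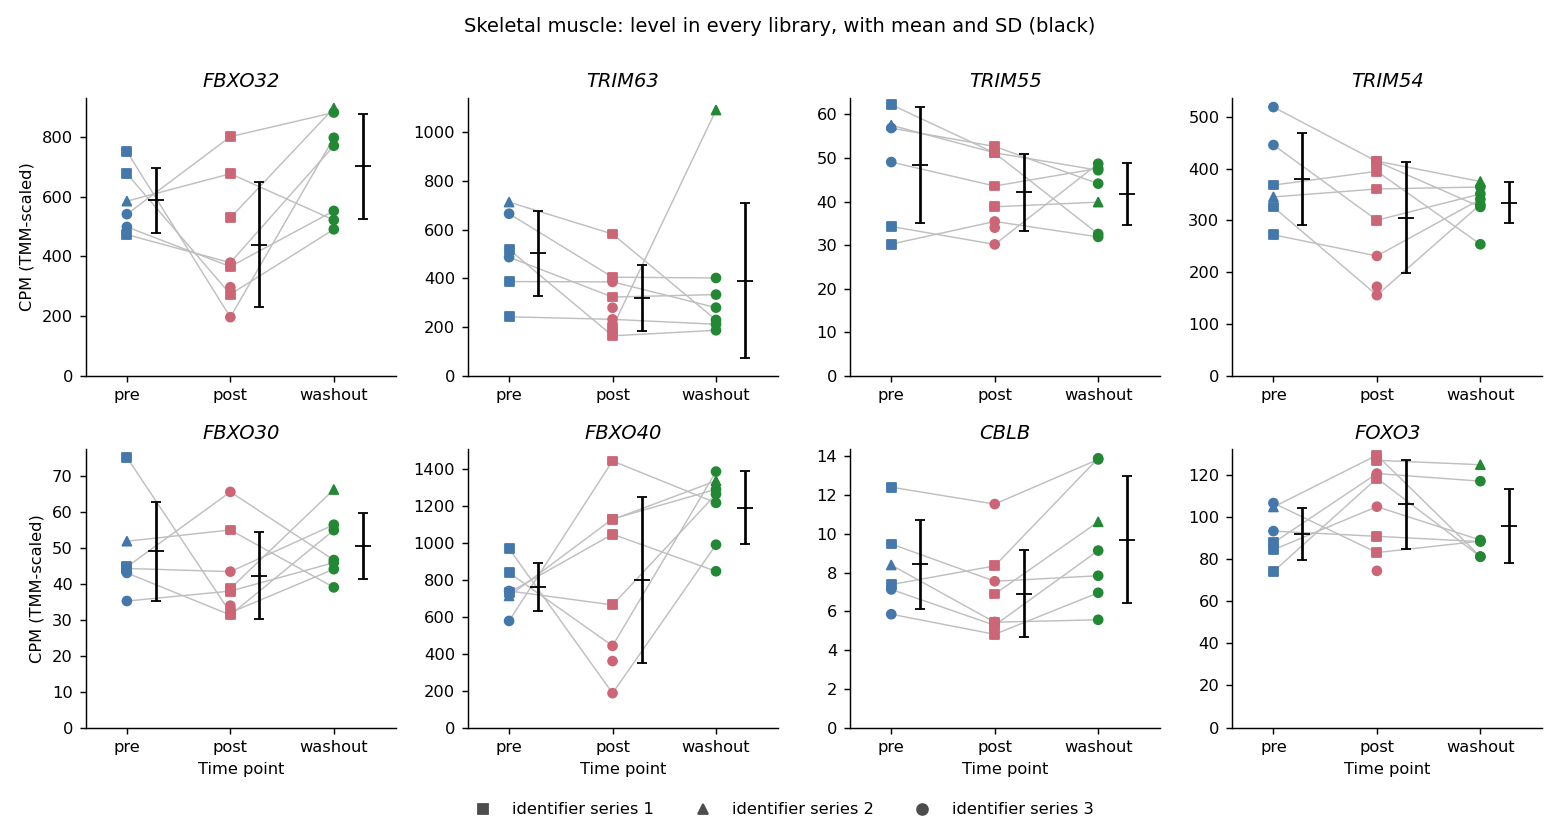
Level of each member in every SM library (CPM, TMM-scaled, linear axes from 0) at the 3 time points, with grey lines joining the libraries of an animal, symbols marking the identifier series and black bars showing the mean and SD. FBXO40, TRIM54 and TRIM55 have their lowest post-treatment values in the 3 series 3 libraries (circles), and TRIM63 has 1 washout library at 1090 CPM with all others at or below 401 CPM.

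Whether FGF21 treatment and the weight loss that came with it moved the atrophy genes in muscle was asked of the post-treatment against the pre-treatment libraries, with 6 animals sampled at both. None of the 8 members was called, and neither was any of the 12617 genes tested (0%). Before adjustment 410 genes had p below 0.05, and voom with limma and DESeq2 called 0 genes as well.

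TRIM63 came closest. It had a lowest, median and highest level of 242, 502 and 712 CPM at pre-treatment and of 164, 301 and 582 CPM at post-treatment. The groups overlapped, yet the post-treatment library was the lower one in 6 of 6 animals, by log2 differences from -1.66 to -0.01. The fitted log2 fold change was -0.71 ± 0.33 (95% interval -1.41 to -0.02), with an unadjusted p of 0.0458 and an adjusted p of 0.9996 in edgeR. Without the 3 series 3 libraries it was -0.89 ± 0.38 (adjusted p = 0.685). Within series, the difference of mean log2 CPM was -0.28 in series 1 (5 against 3 libraries) and -0.96 in series 3 (3 against 2). These differences are unpaired, as only animal 22130 had both libraries within series 1 and no animal had both within series 3. Differences between animals therefore enter both values.

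FBXO32, named with TRIM63 above as a FOXO3 target, had a lowest, median and highest level of 472, 563 and 751 CPM at pre-treatment and of 196, 372 and 800 CPM at post-treatment. The post-treatment libraries spread wider on both sides, with 4 of 6 animals lower and 2 higher. The log2 fold change was -0.50 ± 0.27 (95% interval -1.08 to 0.08, edgeR adjusted p = 0.9996) and shrank to -0.18 ± 0.25 without the 3 libraries. Animal 21189, 1 of those 3, showed the largest difference of an animal, from 751 to 196 CPM.

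FOXO3 itself had a lowest, median and highest level of 74.0, 90.5 and 107 CPM at pre-treatment and of 74.3, 112 and 129 CPM at post-treatment. It was higher in 4 of 6 animals, and the groups overlapped over nearly the whole pre-treatment range. Its log2 fold change was 0.21 ± 0.14 (95% interval -0.08 to 0.50, edgeR adjusted p = 0.9996). Its relative FOXO1, another FOXO factor that acts on the same promoters, ranged from 20.3 to 70.1 CPM at pre-treatment and from 12.5 to 151 CPM at post-treatment, with a log2 fold change of 0.31 ± 0.39 (edgeR adjusted p = 0.9996).

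Among the remaining members FBXO40 varied most. It had a lowest, median and highest level of 578, 737 and 970 CPM at pre-treatment and of 186, 857 and 1446 CPM at post-treatment, so that the post-treatment libraries lay on both sides of the pre-treatment range. The 3 series 3 libraries, at 186, 360 and 443 CPM, were below every pre-treatment library, whereas 4 of the 5 series 1 libraries, at 1049 to 1446 CPM, were above them and the 1 at 665 CPM, of animal 20275, was within their range. The fitted change was -0.01 ± 0.36 with all libraries and 0.58 ± 0.22 (unadjusted p = 0.0217, adjusted p = 0.685) without the 3. TRIM54 showed a like split at post-treatment, with 156 to 231 CPM in the 3 series 3 libraries and 300.3 to 414 CPM in the 5 others. Its log2 fold change went from -0.29 ± 0.19 to -0.03 ± 0.17 without the 3. TRIM55 was split as well, with 30.2 to 35.4 CPM in the 3 and 38.8 to 52.6 CPM in the 5 others. Fitted changes were -0.12 ± 0.15 for TRIM55, -0.20 ± 0.21 for FBXO30 and -0.29 ± 0.17 for CBLB. Without the 3 libraries they were -0.04 ± 0.16, -0.32 ± 0.22 and -0.32 ± 0.19, and that of FOXO3 was 0.25 ± 0.15, none of them called. The median of the 8 log2 fold changes was -0.25, against -0.02 over all genes tested.

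From post-treatment to washout, with 7 animals sampled at both, 24 of 12617 genes (0.190%) were DE in SM and none of the 8 members was among them. FBXO32 had a lowest, median and highest level of 490, 770 and 896 CPM at washout, where the post-treatment values were 196, 372 and 800 CPM. It was higher at washout in 6 of 7 animals, although the groups overlapped, and its log2 fold change was 0.66 ± 0.26 (95% interval 0.11 to 1.21, unadjusted p = 0.0218, adjusted p = 0.218). Without the 3 libraries the difference was 0.39 ± 0.23 (adjusted p = 0.637). With identifier series as a covariate it was 1.16 ± 0.30 and passed the test (adjusted p = 0.0180), in a fit that called 2650 genes in place of 24. Only series 3 held SM libraries of both time points. Its post-treatment libraries were the 3 with low muscle markers, so within a series the comparison rested on them.

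CBLB was higher at washout in 7 of 7 animals. Its lowest, median and highest levels were 4.81, 6.17 and 11.5 CPM at post-treatment and 5.56, 9.14 and 13.9 CPM at washout, so that the groups overlapped although each animal's own washout library was the higher one. The log2 fold change was 0.45 ± 0.16 (95% interval 0.11 to 0.78, unadjusted p = 0.0130, adjusted p = 0.187) and stayed near that size without the 3 libraries (0.51 ± 0.18, adjusted p = 0.483). It rested on 70 to 282 counts per library, the fewest of any member in SM.

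FBXO40 had a lowest, median and highest level of 848, 1266 and 1389 CPM at washout. The 7 washout libraries were far less spread than the 8 post-treatment ones, with an SD of 198 CPM against 449 CPM. The log2 fold change of 0.56 ± 0.33 (edgeR adjusted p = 0.408) became 0.08 ± 0.21 without the 3 libraries and 1.47 ± 0.32 (adjusted p = 0.00896) with identifier series as a covariate. Within series 3 alone, whose post-treatment libraries are these 3, washout was above post-treatment by 1.89 in mean log2 CPM for FBXO40 and by 1.22 for FBXO32 (6 against 3 libraries). Only animals 21189 and 24849 had libraries at both time points within series 3, so these differences are largely unpaired.

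FOXO3 was lower at washout in 6 of 7 animals, with a log2 fold change of -0.21 ± 0.13 (edgeR adjusted p = 0.411). TRIM63 had a log2 fold change of 0.05 ± 0.33, which hid large differences of opposite sign, since animals ranged from -1.34 to 2.46 on the log2 scale. The value at the top of that range belonged to animal 20456, whose TRIM63 level went from 199 CPM at post-treatment to 1090 CPM at washout. The nearest other washout library was at 401 CPM. The remaining log2 fold changes were -0.03 ± 0.14 for TRIM55, 0.10 ± 0.18 for TRIM54 and 0.23 ± 0.20 for FBXO30. Without the 3 libraries the values were -0.21 ± 0.15 for FOXO3, 0.28 ± 0.38 for TRIM63, -0.08 ± 0.16 for TRIM55, -0.12 ± 0.16 for TRIM54 and 0.38 ± 0.21 for FBXO30, none of them called. TRIM63 and TRIM54 changed sign when scaled by library size alone.

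Washout against pre-treatment asks what remained after FGF21 was withdrawn. In SM 8 genes were DE (0.0634%) and none was a member, over 6 animals sampled at both. TRIM63 was again lower in 6 of 6 animals, by log2 differences from -1.64 to -0.20, with a lowest, median and highest level of 187, 280 and 1090 CPM at washout. The highest washout library came from animal 20456, which had no pre-treatment library with counts. The log2 fold change was -0.67 ± 0.35 (95% interval -1.40 to 0.07, unadjusted p = 0.0743, adjusted p = 0.415) with that animal and -0.84 ± 0.23 (unadjusted p = 0.00267, adjusted p = 0.254) without it. The post-treatment and washout comparisons share the pre-treatment libraries, so the same animals being lower in both is not independent evidence.

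FBXO40 was higher at washout than at pre-treatment in 6 of 6 animals, with group means of 762 ± 132 CPM (SD, n = 6) and 1192 ± 198 CPM (SD, n = 7). The groups overlapped through the washout library of animal 22130 at 848 CPM. The log2 fold change was 0.55 ± 0.34 (95% interval -0.19 to 1.28, edgeR adjusted p = 0.510). Leaving out the 3 post-treatment libraries, which are in neither group but set the spread of the fit, gave 0.66 ± 0.19 (unadjusted p = 0.00450, adjusted p = 0.105), and identifier series as a covariate gave 1.18 ± 0.30 (adjusted p = 0.0270). Over the same interval FOXO3 had a log2 fold change of -0.003 ± 0.14 (95% interval -0.30 to 0.29), FBXO30 of 0.03 ± 0.21, FBXO32 of 0.16 ± 0.27 and CBLB of 0.15 ± 0.17. The values of TRIM55 and TRIM54 were -0.15 ± 0.15 and -0.19 ± 0.19. Without the 3 libraries the values were 0.04 ± 0.14 for FOXO3, 0.06 ± 0.19 for FBXO30, 0.21 ± 0.22 for FBXO32, 0.18 ± 0.16 for CBLB, -0.12 ± 0.15 for TRIM55, -0.15 ± 0.15 for TRIM54 and -0.61 ± 0.35 for TRIM63, none of them called. FBXO30 changed sign when scaled by library size alone, and FOXO3 in DESeq2 with its own size factors.

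**Figure D2:**
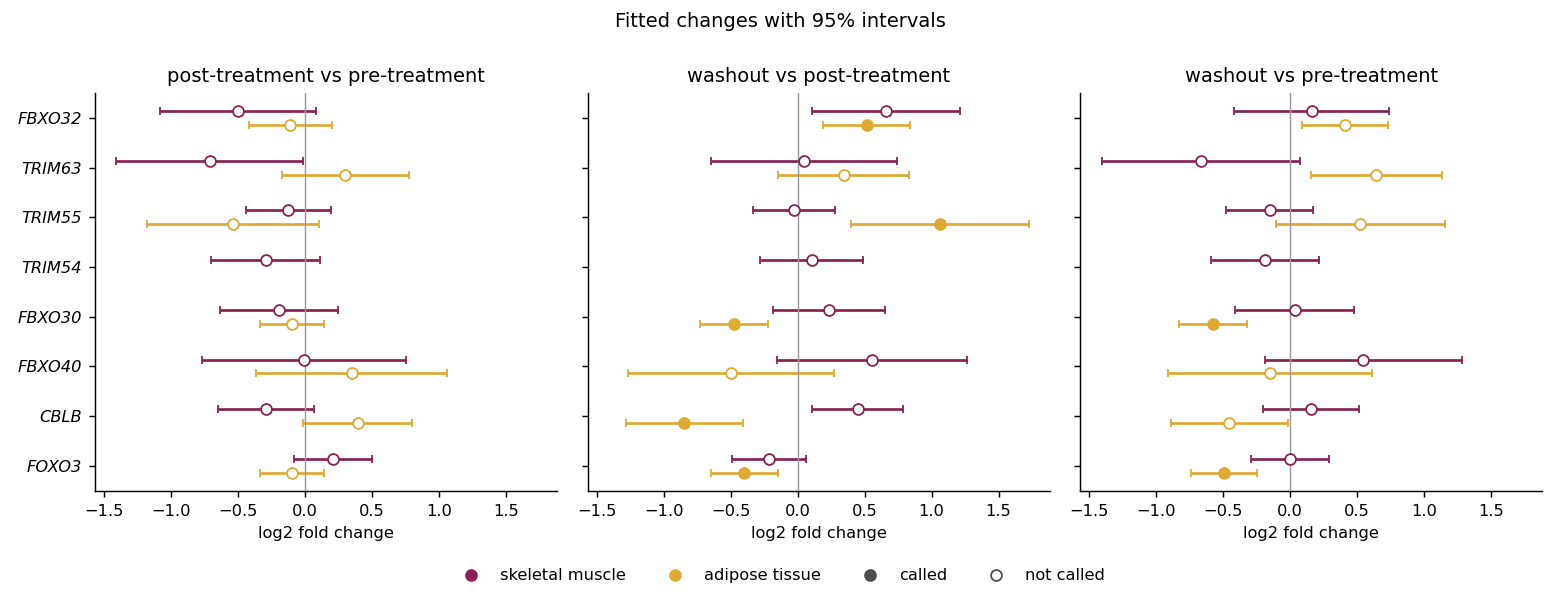
Fitted log2 fold change (horizontal axis) of each member between time points in SM and AT, with 95% intervals and filled symbols for calls at the adjusted p and fold limits. No SM symbol is filled, 5 AT symbols are filled for washout vs post-treatment and 2 for washout vs pre-treatment, and TRIM54 was not tested in AT.

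The other genes of the pathway in SM also had no calls. At most 0.190% of all genes were called by edgeR in any SM comparison, so 0 calls do not set these lists apart. Of 32 further muscle ubiquitin ligases and their partners (such as NEDD4, TRIM32 and the conjugating enzyme UBE2D1), 30 were tested and 0 passed in either direction in any of the 3 SM comparisons. Their median log2 fold change was -0.07 at post-treatment against pre-treatment, 0.19 at washout against post-treatment and 0.19 at washout against pre-treatment, where all genes had medians of -0.02, -0.03 and -0.05. Of 25 reported FOXO targets in muscle (autophagy genes, sestrins and others), 23 were tested and 0 passed, with medians of -0.05, -0.10 and -0.19 in the same order. The 24 tested genes of insulin and AKT control of FOXO had 0 calls and medians of -0.02, 0.21 and 0.19. The 24 ligase substrates and sarcomere genes had 0 calls and medians of -0.11, 0.21 and 0.09. Genes of denervation and disuse (17 tested, among them acetylcholine receptor subunits and MYOG) also had 0 calls, and their medians were -0.03, -0.90 and -0.68. At washout against post-treatment 16 of 17 were fitted lower, where 6760 of all 12617 genes were. Only 3 of the 17 had an unadjusted edgeR p below 0.05 there, as did 2181 of all genes.

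The members were then compared across the 21 SM libraries irrespective of time point. TRIM63 and FBXO40 varied most, with an SD of log2 CPM of 0.72 and 0.73, above 79.1% and 80.0% of the 11139 tested genes that averaged 1 CPM or more. FOXO3 varied least, with an SD of 0.26, above 14.0% of those genes, where the median gene had 0.43. FOXO3 spanned 1.75-fold from its lowest to its highest library, TRIM63 6.64-fold and FBXO40 7.77-fold.

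**Figure D3:**
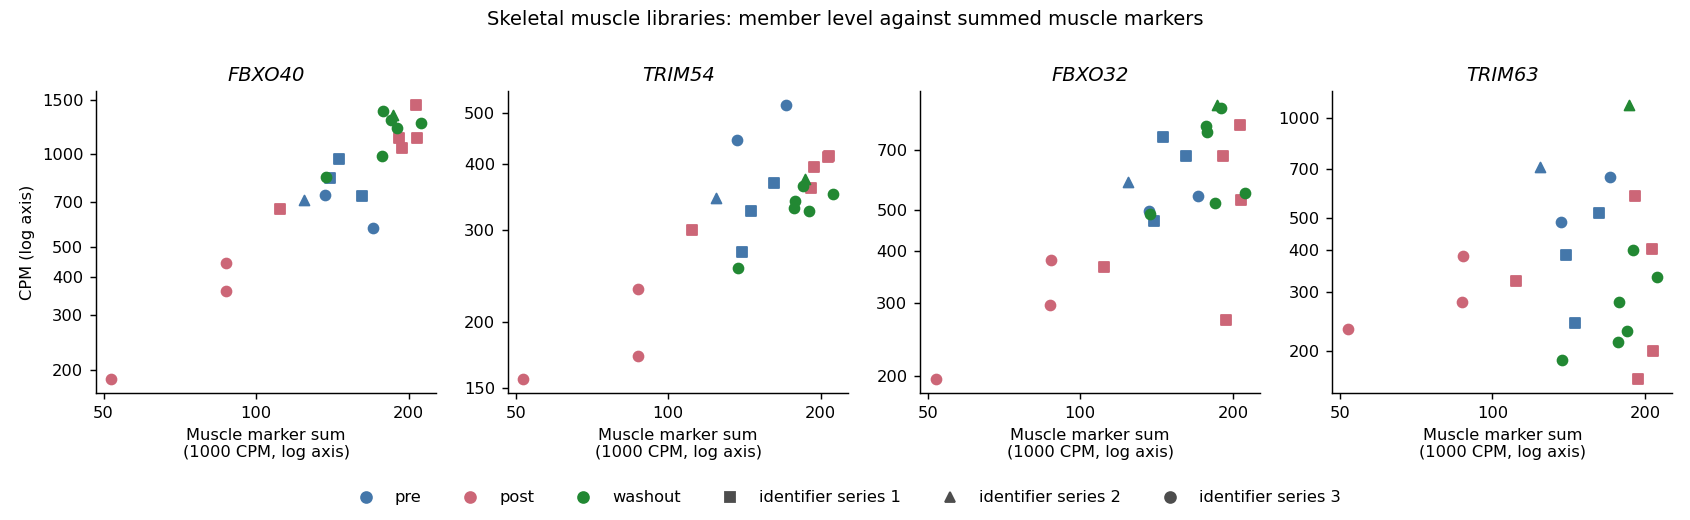
Level of 4 members (CPM, log axes) against the summed level of the 11 skeletal muscle markers (in units of 1000 CPM, log axis) in each of the 21 SM libraries, with colours for time point and symbols for identifier series. FBXO40 and TRIM54 rise with the marker sum and the 3 series 3 post-treatment libraries lie at its lower end, whereas TRIM63 shows no such order (Pearson's r of 0.93, 0.83 and 0.11).

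The level of some members followed that of the muscle markers. Pearson's r of log2 CPM with the log2 summed skeletal muscle markers was 0.93 for FBXO40, 0.83 for TRIM54 and 0.72 for FBXO32 over the 21 libraries, higher than for 99.8%, 95.04% and 87.9% of genes. It was 0.43 for TRIM55 and between -0.12 and 0.11 for TRIM63, FOXO3, FBXO30 and CBLB. With the fibroblast markers r was -0.85 for TRIM54 and -0.76 for FBXO40. All points share library depth and scaling, animals appear up to 3 times, and the 3 libraries of series 3 lie at one end, so these values are a description and carry no test. How much of the FBXO40, TRIM54, FBXO32 and TRIM55 values in the comparisons came with the share of muscle RNA was not tested beyond the fits without these 3 libraries.

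Among themselves the members fell along the same lines. FBXO32 and FBXO40 had an r of 0.76, FBXO40 and TRIM54 of 0.70 and TRIM54 and TRIM55 of 0.63. TRIM63 and FBXO32, the pair usually read together as atrophy markers, had an r of 0.42. That was above 94.4% of the r values of TRIM63 with other genes and above 76.6% of those of FBXO32. For FBXO40 and TRIM54 the like shares were 86.9% of the r values of FBXO40 and 93.1% of those of TRIM54. FOXO3 had an r of -0.04 with FBXO32 and of 0.11 with TRIM63. When time point and animal were removed, the r of TRIM63 with FBXO30 was 0.74 (0.47 before) and that of FBXO32 with FBXO40 was 0.73. That of TRIM63 with FBXO32 was then 0.22. CBLB ran opposite to TRIM55, with an r of -0.52.

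**Figure D4:**
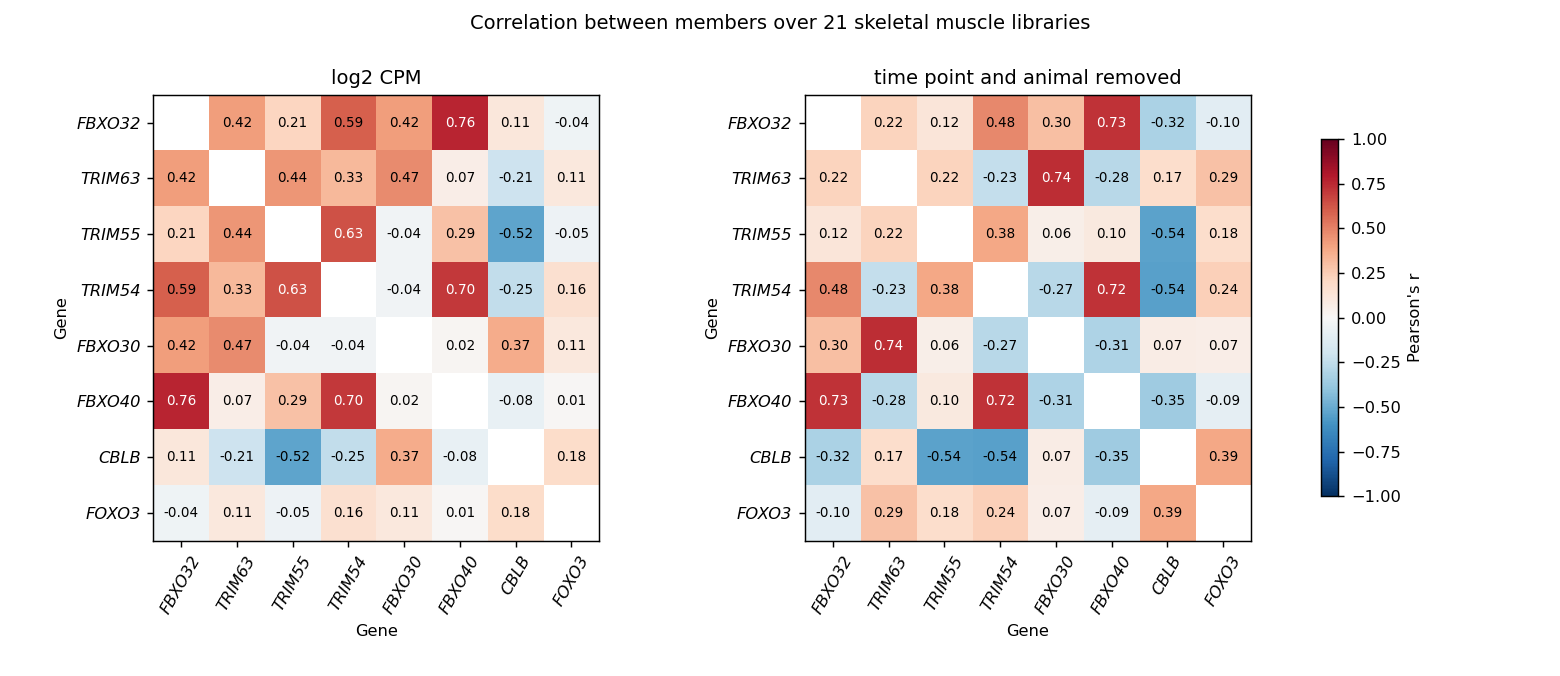
Pearson's r between members over the 21 SM libraries, on log2 CPM (left) and after time point and animal were removed (right), with the r value printed in each cell on a colour scale from -1 to 1. The pairs of FBXO40 with FBXO32 and TRIM54 are high on both sides, and TRIM63 with FBXO30 goes from 0.47 to 0.74.

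Among the SM genes with the pattern most like that of a member, over the 21 libraries and by Pearson's r of log2 CPM, were CHD2 and WDR26 for FBXO32 (r of 0.857 and 0.843). For TRIM63 they were UBE2D1, RRAD and KBTBD2 (0.716, 0.703 and 0.698). For FOXO3 they were ZNF774, PRKG1 and E2F8 (0.784, 0.666 and 0.650). These r values were higher for FBXO32 than for the other 2 genes.

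In AT, post-treatment against pre-treatment gave 0 of 7 tested members DE where 2068 of 13367 genes (15.5%) were. TRIM54 was not tested, having at most 6 counts in any AT library. CBLB came closest, at a lowest, median and highest level of 19.6, 26.3 and 35.7 CPM at pre-treatment and of 24.4, 35.7 and 55.4 CPM at post-treatment. It was higher in 8 of 9 animals, with a log2 fold change of 0.39 ± 0.20 (95% interval -0.02 to 0.80, edgeR adjusted p = 0.164). TRIM55 was lower in 8 of 9 animals, with a log2 fold change of -0.54 ± 0.31 (adjusted p = 0.222).

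From post-treatment to washout in AT 4731 genes (35.4%) were DE, and 5 of the 7 tested members were called, 3 lower (17.8% of genes) and 2 higher (17.6%). CBLB fell, from a lowest, median and highest level of 24.4, 35.7 and 55.4 CPM to 11.4, 18.6 and 32.5 CPM, in 7 of 8 animals. Its log2 fold change was -0.85 ± 0.21 (edgeR adjusted p = 0.00418), and the groups overlapped through the washout libraries of animals 23004 and 26292. The 8 macrophage markers moved with CBLB, all 8 being called lower in this comparison with a median log2 fold change of -1.70, and their summed level went from 721 to 4002 CPM at post-treatment to 342 to 1885 CPM at washout. Whether they had a part in the CBLB value was not tested.

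FOXO3 fell in AT in 8 of 8 animals. It had a lowest, median and highest level of 102, 128 and 144 CPM at post-treatment and of 79.6, 90.2 and 124 CPM at washout, and its log2 fold change was -0.40 ± 0.12 (edgeR adjusted p = 0.0144). FBXO30 fell by 0.48 ± 0.12 on the log2 scale (edgeR adjusted p = 0.00512), from 33.0, 45.4 and 62.5 CPM to 26.1, 29.5 and 46.5 CPM, though only 5 of 8 animals were lower. For both genes 5 of the 8 washout libraries lay below the whole post-treatment range and the other 3 within it.

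FBXO32 and TRIM55 moved the other way. FBXO32 had a lowest, median and highest level of 55.8, 65.2 and 114 CPM at post-treatment and of 65.5, 107 and 151 CPM at washout, and rose by 0.52 ± 0.16 (edgeR adjusted p = 0.0137) in 6 of 8 animals. TRIM55 rose in 8 of 8 animals by 1.06 ± 0.32 (edgeR adjusted p = 0.0137), from 0.754, 2.71 and 5.22 CPM to 3.14, 5.47 and 12.02 CPM. Both genes were highest at washout in animal 22130, and without that animal both calls were lost (adjusted p of 0.0517 for FBXO32 and 0.0542 for TRIM55). The TRIM55 call was also lost without animal 24849 (adjusted p = 0.0502), and the FBXO32 call with identifier series as a covariate (adjusted p = 0.0630). The summed skeletal muscle markers were 77.9 to 314 CPM at post-treatment and 112 to 543 CPM at washout in AT, with TRIM54 at 0 to 6 counts throughout. Markers of other cells rose in the same comparison. Called higher were 4 of 7 endothelial markers and 2 of 6 smooth muscle and pericyte markers, with 0 lower (median log2 fold changes 0.58 and 0.88). Of the 11 skeletal muscle markers DES and PYGM were called higher, but 7 were fitted lower and 4 higher (median log2 fold change -0.11). Of 9 tested slow fiber genes 4 were called higher and 0 lower (median 0.30), where 17.6% of all genes were called higher. Of 12 fast fiber genes 1 was called higher and 0 lower (median -0.12). Of 23 ligase substrates and sarcomere genes 4 were called higher and 2 lower (median -0.11). The part of these markers and genes in the FBXO32 and TRIM55 values was not tested.

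**Figure D5:**
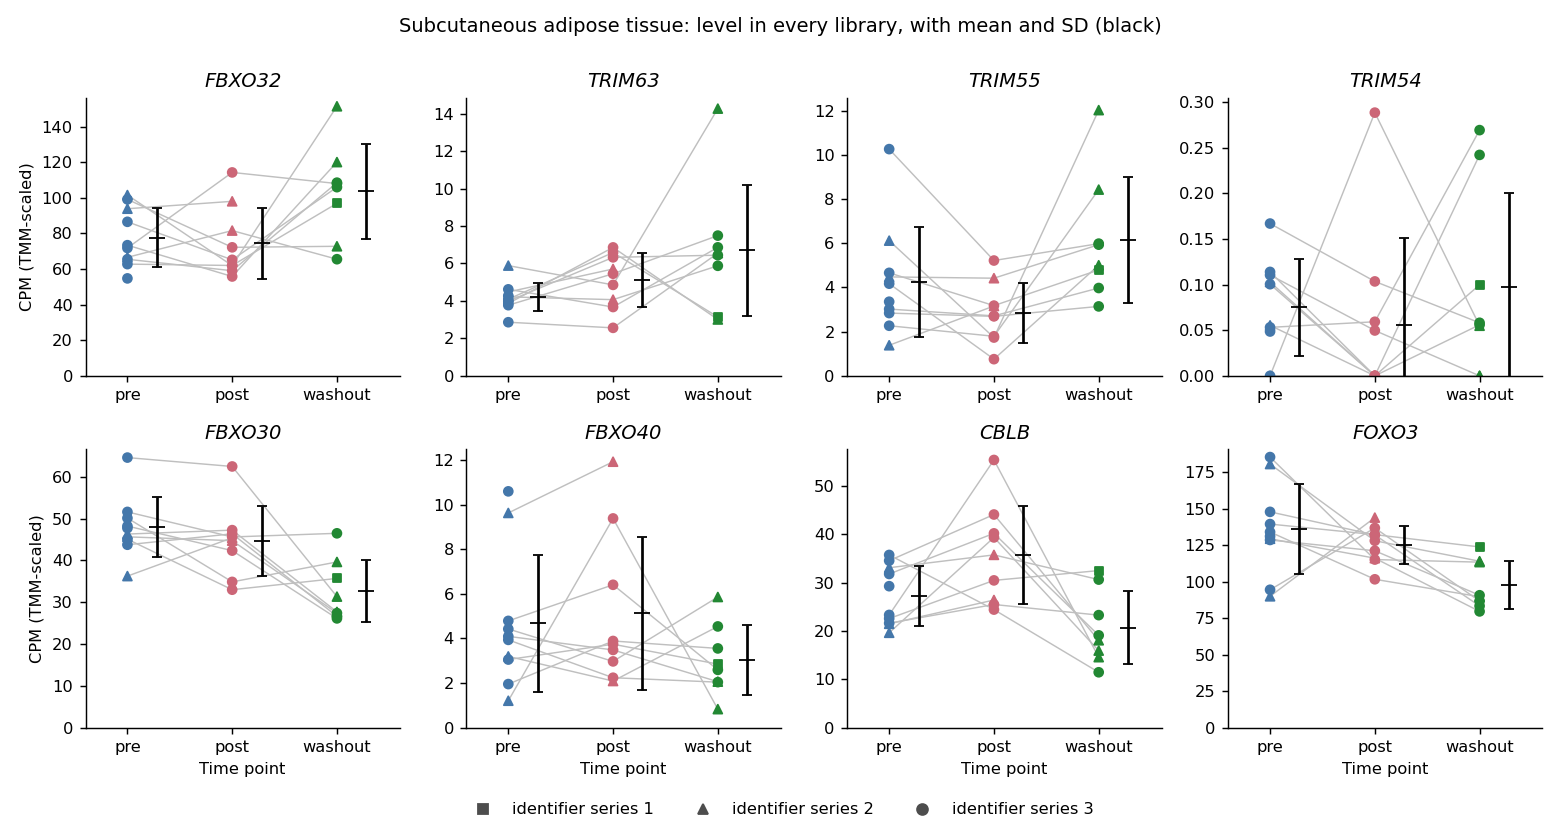
Level of each member in every AT library (CPM, TMM-scaled, linear axes from 0) at the 3 time points, with grey lines joining the libraries of an animal, symbols marking the identifier series and black bars showing the mean and SD. FBXO30, CBLB and FOXO3 have their lowest medians at washout, FBXO32 and TRIM55 their highest, and TRIM54 stays below 0.289 CPM in all libraries but 1, which is at that value.

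At washout against pre-treatment 2735 genes (20.5%) were DE in AT and 2 of 7 tested members were called, both lower (7.96% of genes). FBXO30 fell by 0.58 ± 0.12 on the log2 scale (edgeR adjusted p = 0.00175) and FOXO3 by 0.50 ± 0.12 (edgeR adjusted p = 0.00504), each in 8 of 8 animals. FOXO3 levels at pre-treatment were 89.9, 133 and 185 CPM (lowest, median and highest), with animals 20456 and 21189 at 89.9 and 94.4 CPM inside the washout range of 79.6 to 124 CPM. TRIM63 had a log2 fold change of 0.64 ± 0.23 (95% interval 0.15 to 1.13, adjusted p = 0.0566) and FBXO32 of 0.41 ± 0.15 (95% interval 0.09 to 0.73, adjusted p = 0.0647), both just past the limit. Both were called without animal 24849 (adjusted p = 0.0203 for each). The AT comparisons share libraries with each other as those in SM do.

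The same lists were counted in AT, and the genes named from them here were chosen after their values were seen. Of 23 tested FOXO targets 4 were DE at post-treatment against pre-treatment (15.5% of all genes were), all higher, namely PDK4 (1.12 ± 0.19, edgeR adjusted p = 0.00235), PIK3IP1, SESN3 and CCNG2. Of all 13367 genes 933 were called higher there. At washout against post-treatment (35.4% of all genes) 8 were lower and 1 higher, the lower ones including PDK4, the kinase that holds back pyruvate oxidation (-1.29 ± 0.20, edgeR adjusted p = 0.000116), and the higher one being BCL6. At washout against pre-treatment BCL6 and CDKN1B were higher and none was lower, where 1671 of all 13367 genes were called higher and 1064 lower. In the first of these comparisons 4 of 6 adipocyte markers were called lower and 2 of 8 macrophage markers higher, and their part in the list counts was not tested. Of 30 tested ligases and partners 3, 6 and 4 were DE in the 3 comparisons, where 15.5%, 35.4% and 20.5% of all genes were. CBL, the relative of CBLB, was the member of that list with the largest fall, at -1.30 ± 0.15 from post-treatment to washout (edgeR adjusted p = 9.64e-06). The macrophage markers moved in the same comparison, as given above for CBLB.

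Whether a member moved differently in the tissues was tested by the interaction of tissue and time point over all 48 libraries and 12322 genes. For post-treatment against pre-treatment 6 genes (0.0487%) and 0 members passed, TRIM63 having a difference (SM minus AT) of -0.97 ± 0.39 (unadjusted p = 0.0195, edgeR adjusted p = 0.355). For washout against post-treatment 2793 genes (22.7%) and 3 of 7 members passed. CBLB differed most, by 1.31 ± 0.27 (edgeR adjusted p = 0.000777), with 0.45 in SM and -0.85 in AT. FBXO30 differed by 0.73 ± 0.22 (edgeR adjusted p = 0.0183) and TRIM55 by -1.08 ± 0.39 (edgeR adjusted p = 0.0441).

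For washout against pre-treatment 2157 genes (17.5%) and 3 of 7 members passed the interaction. TRIM63 differed by -1.24 ± 0.41 (edgeR adjusted p = 0.0344), with -0.67 in SM and 0.64 in AT, neither of which passed in its own tissue. FBXO30 differed by 0.67 ± 0.23 (edgeR adjusted p = 0.0402) and FOXO3 by 0.56 ± 0.18 (edgeR adjusted p = 0.0273), both at about 0 in SM and lower in AT. Scaled by library size alone, which shifted the median of all genes from 0.01 to -0.23, only TRIM63 of these 3 stayed called. FBXO32 did not pass in any interaction, its log2 fold changes from post-treatment to washout being 0.66 in SM and 0.52 in AT, and the difference of 0.16 had a 95% interval from -0.46 to 0.77.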

How the data were processed

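RNA from punch biopsies was sequenced with a stranded mRNA kit as paired-end 50 nt reads. The authors aligned reads to the MacaM genome with STAR, removed libraries of low RNA integrity or mapping rate, matched genes to human symbols and deposited raw counts per gene. The counting tool was not given in the sources used here. Of 51 labelled samples 48 had counts, and 70 of 16103 table entries were repeats and were dropped. Groups came from the labels. Each tissue was fitted with edgeR 4.0.16 (R 4.3.3, TMM, quasi-likelihood, genes with at least 0.5 CPM in 10% of libraries) on time point and animal. The tissues were also compared at pre-treatment with animal in the model, and by the interaction with animal within tissue. Animals pair the libraries by the labels. In SM 19 same-animal pairs of libraries deviated together (median r 0.29) and 127 other pairs did not (-0.05). Scripts were tested on simulated data. The 8 members were always named, with FOXO1, up to 3 called genes per list and direction in SM, and the 3 genes most like FBXO32, TRIM63 and FOXO3, of which 1 is not reported here. Members and lists were chosen with earlier results of these data known. Alternatives used limma 3.58.1, DESeq2 1.42.0, other scalings, filters and covariates, no animal term, and each animal left out.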

Additional observations from a re-analysis of the deposited data

Results flagged for a closer look

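A single library stood far from the others of its group in 6 of the 48 groups of a member, tissue and time point that were checked. Chance flags about 1 in 20 groups of normally distributed values. The check used CPM without a log scale, which need not be so distributed, so the count cannot be set against that rate. In SM at washout TRIM63 was at 1090 CPM in animal 20456 (nearest other 401 CPM) and TRIM54 at 254 CPM in animal 22130 (nearest other 326 CPM). In AT, TRIM63 was at 14.3 CPM at washout in animal 22130 (nearest other 7.49 CPM), TRIM55 at 10.3 CPM at pre-treatment in animal 21189 (nearest other 6.12 CPM), FBXO30 at 62.5 CPM at post-treatment in animal 20275 (nearest other 47.2 CPM) and TRIM54 at 0.289 CPM at post-treatment in animal 22130 (nearest other 0.104 CPM, a matter of few counts).

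The change between time points differed between the tissues, by the interaction test, for 3 of 7 members from post-treatment to washout (22.7% of all genes) and for 3 of 7 from pre-treatment to washout (17.5%). As SM minus AT on the log2 scale the former were CBLB at 1.31, FBXO30 at 0.73 and TRIM55 at -1.08, and the latter TRIM63 at -1.24, FBXO30 at 0.67 and FOXO3 at 0.56.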

How the results depend on the processing

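The count of members called was 0 in each SM comparison under voom with limma, DESeq2, library-size scaling, no filter, no fold limit, no replicate block (no animal term) and without each animal (range 0 to 0). Identifier series as a covariate raised it to 2 (FBXO32, FBXO40) for washout against post-treatment and 1 (FBXO40) for washout against pre-treatment. Only series 3 held SM libraries of both post-treatment and washout, its 3 post-treatment libraries being those with low muscle markers. Over all genes the SM count for washout against pre-treatment was 8 in edgeR, 674 by voom, 170 by DESeq2, 41 without the block, 3 by library size, 100 without the 3 series 3 libraries and 1355 with series; for washout against post-treatment it was 24 in edgeR, 22, 359, 224, 4, 1 and 2650 in the same order. Without 1 animal these ranged from 0 to 16 and from 0 to 38. The causes were not tested.

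In AT, leaving out an animal gave 3 to 5 members for washout against post-treatment and 2 to 4 for washout against pre-treatment. In the latter, voom called 5 and DESeq2, library size and series called 4 each, in place of 2. By library size 590 of 2903 AT calls were lower for washout against pre-treatment (1064 of 2735 with TMM) and 1750 of 4729 for washout against post-treatment (2379 of 4731). The interaction for washout against pre-treatment called 1 member by library size in place of 3. No other such count moved by over 1.5 times, and for post-treatment against pre-treatment in AT it was 0 throughout.

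Values that changed sign were mostly near 0. For SM post-treatment against pre-treatment, FBXO40 came to 0.29 by voom, 0.017 by DESeq2, 0.071 without the replicate block, 0.58 without the 3 series 3 libraries, and -0.29 to 0.40 without single animals, where FBXO30 ranged from -0.33 to 0.016. For SM washout against post-treatment, TRIM55 came to 0.0020 by voom (-0.16 to 0.063 without single animals), TRIM54 to -0.044 by voom, -0.0041 by library size and -0.12 without the 3 libraries (-0.042 to 0.23), and TRIM63 to -0.11 by library size and -0.14 with series (-0.29 to 0.28). For SM washout against pre-treatment, FOXO3 came to 0.018 by voom, 0.036 by DESeq2, 0.0014 without a filter, 0.060 without the block and 0.036 without the 3 libraries (-0.033 to 0.091), and FBXO30 to -0.040 by library size (-0.030 to 0.22). FBXO32 in AT at post-treatment came to 0.090 by voom. At pre-treatment between tissues, library size gave -0.014 for FBXO30 and -0.58 for FOXO3. The interactions came to 0.18 for FBXO40 (post-treatment against pre-treatment) and 0.072 for TRIM63 (washout against post-treatment) by voom, and to -0.033 for FBXO32 and -0.012 for FOXO3 (washout against post-treatment) by library size.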

Other observations

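Other gene groups in SM also passed no edgeR test between time points, where at most 0.190% of all genes did. At washout against pre-treatment the 9 tested slow fiber genes were all fitted higher (median log2 fold change 0.64, 0 called), where 5503 of 12617 genes were. All 9 were also fitted higher at post-treatment than at pre-treatment (median 0.45), and 5 of 9 from post-treatment to washout (median 0.16). The 12 fast fiber genes had a median of -0.12 at washout against pre-treatment (0 called). The 11 immediate early genes had a median of -0.40 (0 called) in the same comparison. Hemoglobin and other erythroid markers summed to 8.18 to 127 CPM at pre-treatment, 16.3 to 4276 CPM at post-treatment and 63.1 to 1628 CPM at washout. The medians were 38.1, 55.3 and 839 CPM. HBA1 and HBA2 were at 0 CPM in all SM libraries, so the sum came from HBB and ALAS2. Satellite cell, skeletal muscle, fibroblast, endothelial, adipocyte, macrophage and smooth muscle markers had 0 calls in SM in any of the 3 comparisons.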
